A study of Mus musculus with 9 samples.

Results

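Cecal material transfer was compared with control in ileal epithelial cells of male NOD mice aged 23 days (P23). NOD is an inbred strain in which autoimmune diabetes arises without induction. The comparison was defined by the sample descriptions and used 6 of the 9 libraries, namely 3 labelled control and 3 labelled cecal material transfer. The remaining 3 libraries, labelled 1PAT antibiotics, entered the fit to share the estimate of spread and are shown beside the results. Strain, sex, age, cell type and the batch number, 1, were the same in all 9. Whether the transfer mice had first received antibiotic is not stated in the labels, although the series title presents the transfer as a rescue from it. Nor is it stated that the replicates of a group were different animals, so the p-values reflect only how far these libraries varied, which may be technical. All 547 endogenous genes of an nCounter mouse immunology panel were included. In this assay a pair of probes with a colour code marks each transcript, and single molecules are counted by imaging without amplification.

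The ileal epithelium is a single layer of absorptive, goblet and Paneth cells between the gut lumen and the lamina propria. Its secretory cells release lectins, phospholipases and defensins that act on gut bacteria, and its absorptive cells carry secretory IgA to the lumen through the polymeric Ig receptor. Intraepithelial lymphocytes, most of them cytotoxic T cells, lie between these cells and come with them when the epithelium is isolated. Bacterial products from the lumen are sensed through Toll-like receptors, and the microbiota is known to shape both the lymphocytes and the antimicrobial output of the layer.

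Total counts over the endogenous and 14 housekeeping genes ran from 359982 to 747434 in the 6 libraries. The background limit, which is the mean plus 2 SD of a library's negative-control probes, lay between 7.74 and 17.7 counts. Of the endogenous genes, 326 exceeded it in all 6 libraries and 51 in none. Levels are scaled counts (CPM) with TMM library factors, and 470 genes were kept for testing.

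Control replicate 3 stood apart. On the leading principal component of log2 CPM, which held 52.5% of the variance over the 9 libraries, its coordinate was -27.5, and those of the other libraries ran from -7.26 to 11.7. The summed level of 18 T cell markers was 53524, 45626 and 12524 CPM in control replicates 1 to 3 and 87661, 53803 and 95144 CPM in transfer replicates 1 to 3. The summed level of 6 epithelial markers was 85324, 106190 and 116772 CPM in control and 50298, 104832 and 56363 CPM in transfer. Control replicate 3 thus had the least lymphocyte and the most epithelial marker signal of the 6 libraries, and transfer replicate 2 lay nearer to the control libraries than the other 2 transfer libraries did. In bulk libraries such as these, fewer cells of a type and less RNA per cell cannot be told apart. The label of epithelial cells was met by high levels of the polymeric Ig receptor gene Pigr, the gut chemokine gene Ccl25 and the intelectin gene Itln1, while the beta-defensin gene Defb1 was above the limit in 2 of 3 control and 0 of 3 transfer libraries. Epcam, Cdh1, Vil1, Krt8, Krt20, Fabp1 and Muc2 were not among the genes measured here.

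**Figure D1:**
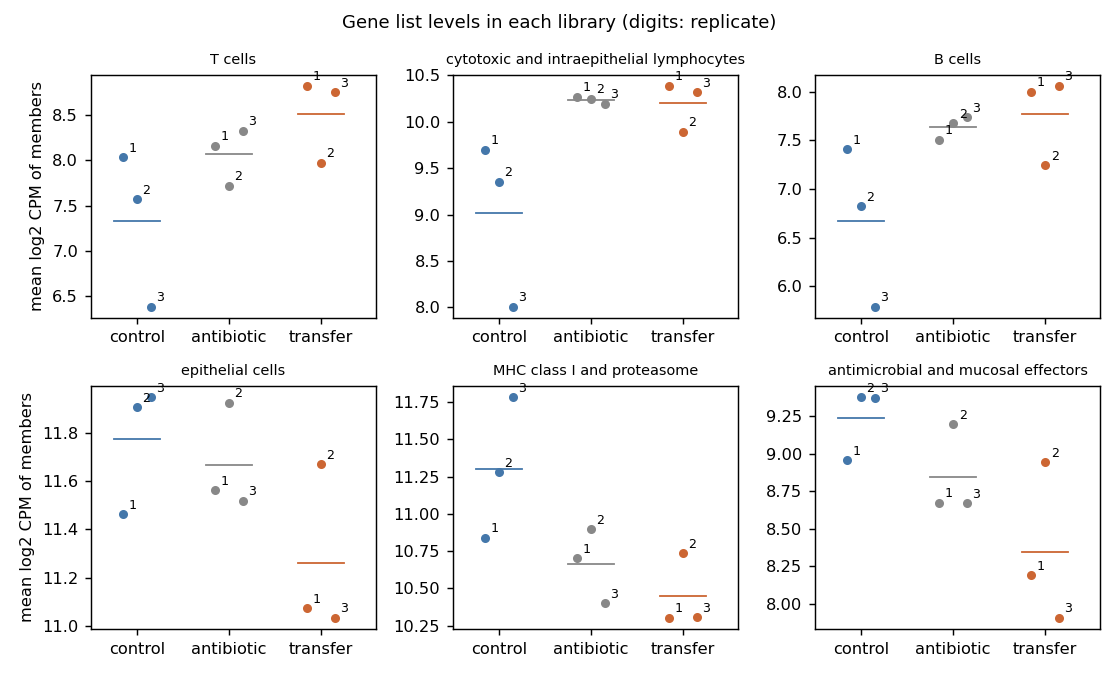
Mean log2 CPM (TMM-scaled) of the kept members of 6 gene lists in each of the 9 libraries; points are libraries, digits are replicate numbers and lines are group means. Control replicate 3 has the lowest value of the 3 lymphocyte panels and the highest of the MHC class I panel, and of the 3 transfer libraries replicate 2 lies nearest to the control mean in all 6 panels.

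Lymphocyte genes were higher and epithelial effector, class I presentation and interferon genes lower in the transfer libraries, and no gene passed the test over all genes. By edgeR's quasi-likelihood test 0 of 470 genes (0%) had an adjusted p under 0.05, and the smallest adjusted p was 0.181. DESeq2 called 40 of the 324 genes to which it gave an adjusted p, of which 29 (8.95%) were higher and 11 (3.4%) lower, and limma-voom called 0. At an unadjusted edgeR p under 0.05 stood 71 higher (15.1%) and 34 lower genes (7.23%). In 74 genes (15.7%) every transfer library lay above every control library, and in 50 genes (10.6%) every one lay below. Over the kept genes the median log2 fold change was 0.08, with 248 genes higher and 222 lower. The 95% interval of a gene's log2 fold change reached a median of 1.07 to either side without adjustment over genes. Without control replicate 3, edgeR called 1 gene, Itln1, and DESeq2 called 13, all of them among its 40. Without control replicate 1, edgeR called Cdkn1a alone, a cell cycle inhibitor gene picked out here after its values were seen. Cdkn1a measured 248, 1567 and 3552 CPM in control and 492, 479 and 296 CPM in transfer, so the groups overlapped and control replicate 3 set most of the difference: its log2 fold change of -2.08 ± 0.68 (SE) was -0.97 without that library.

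The 20 endogenous genes with the smallest p, 13 higher and 7 lower, had edgeR adjusted p-values between 0.181 and 0.185. All 20 had groups that did not overlap, and all 20 were among the DESeq2 calls. They were picked by their p, so this describes them and is no further test. Folds ran from 2.55 to 3.6 for the higher and from 1.77 to 3.76 for the lower genes.

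**Figure D2:**
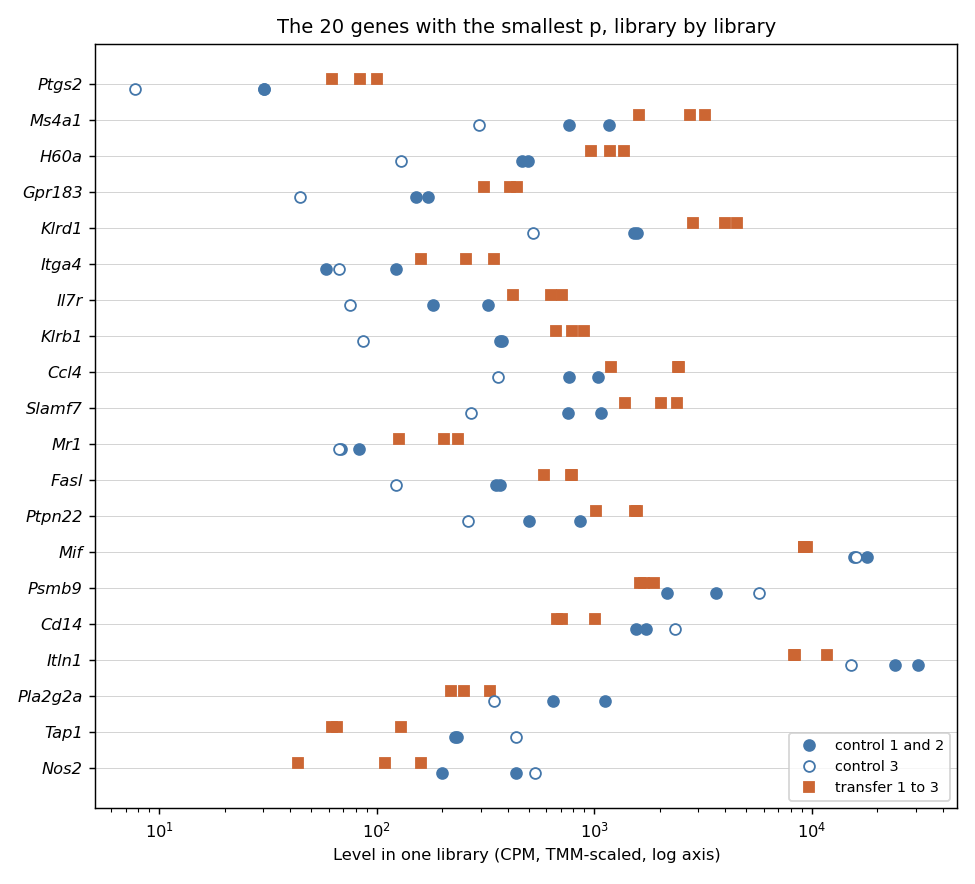
Level (CPM, TMM-scaled, log axis) in each control and transfer library of the 20 endogenous genes with the smallest p, ordered by fold change; circles are control, with control replicate 3 open, and squares are transfer libraries. In all 20 genes the 3 squares lie to one side of the 3 circles, and control replicate 3 is the lowest circle in 12 of the 13 higher genes.

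Genes of intraepithelial and cytotoxic lymphocytes were higher in transfer. Of 15 kept members of that list (17 on the panel), 15 were higher. The median log2 fold change was 1.18, against 0.08 over all kept genes. At an unadjusted p under 0.05 stood 10 members, and 9 did not overlap between groups. The shares of all kept genes on the higher side were 15.1% and 15.7%. Klrd1 encodes CD94, the partner chain of NKG2 receptors on natural killer cells and cytotoxic T cells. It measured 1518, 1569 and 525 CPM in control and 3986, 2848 and 4508 CPM in transfer. The lowest transfer library lay well above the highest control library, and the log2 fold change was 1.65 ± 0.41 (SE). Klrb1, another lectin-like receptor gene of these cells, measured 378, 367 and 86.5 CPM in control and 786, 663 and 897 CPM in transfer. Slamf7, a receptor gene of activated cytotoxic and plasma cells, measured 1073, 758 and 271 CPM in control and 2024, 1386 and 2400.3 CPM in transfer. Fasl, whose product kills Fas-bearing targets, measured 367, 352 and 123 CPM in control and 778, 587 and 791 CPM in transfer. These 3 genes did not overlap between the groups either, and their log2 fold changes were 1.5 ± 0.47 (SE), 1.47 ± 0.45 (SE) and 1.35 ± 0.42 (SE). Cd69, an early activation marker that also holds T cells in tissues, measured 324, 319 and 162 CPM in control and 767, 378 and 703 CPM in transfer, with transfer replicate 2 close to the controls. Granzyme A, the most abundant effector protease gene here, measured 40359, 55617 and 17162 CPM in control and 71723, 56781 and 82024 CPM in transfer (log2 fold change 0.90 ± 0.37, SE), with transfer replicate 2 just above the highest control library. Granzyme B overlapped between groups, at 29358, 42267 and 12674 CPM in control and 43654, 33112 and 46612 CPM in transfer. Leaving out 1 library at a time moved the list's median between 0.94 without control replicate 3 and 1.54 without control replicate 1.

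T cell genes followed the same direction. All 18 kept markers were higher, with a median of 1.10 and a range from 0.69 to 1.48, yet 6 stood at an unadjusted p under 0.05 and 4 did not overlap. The matching shares of all kept genes were 15.1% and 15.7%, so the 4 of 18 without overlap lay little above the background. Cd3d, a signalling chain of the T cell receptor complex, measured 3742, 3282 and 948 CPM in control and 6424, 5064 and 7773 CPM in transfer. Cd28, the receptor for co-stimulation, measured 67.3, 75.5 and 53.8 CPM in control and 138, 105 and 178 CPM in transfer. Both had every transfer library above every control library, with log2 fold changes of 1.27 ± 0.43 (SE) and 1.09 ± 0.40 (SE). Lck, the kinase that starts T cell receptor signalling, measured 256, 404 and 100 CPM in control and 996, 294 and 833 CPM in transfer. Cd8a, a chain of the CD8 co-receptor, measured 356, 482 and 206 CPM in control and 1019.9, 431 and 933 CPM in transfer. In both, transfer replicate 2 lay below control replicate 2, so the groups overlapped despite log2 fold changes of 1.48 ± 0.55 (SE) and 1.19 ± 0.43 (SE). The median of the list stayed between 0.86 without control replicate 3 and 1.44 without control replicate 1. Il7r and Ptpn22 are not members of the T cell list. Il7r, the receptor gene for the survival cytokine IL-7, measured 326, 181 and 75 CPM in control and 708, 424 and 631 CPM in transfer (log2 fold change 1.60 ± 0.49, SE). Ptpn22, a phosphatase that restrains antigen receptor signalling and a gene linked to autoimmune diabetes in people, measured 499.5, 859 and 262 CPM in control and 1574, 1022 and 1533 CPM in transfer (log2 fold change 1.35 ± 0.41, SE). The groups did not overlap for either gene, and control replicate 3 was lowest in both. Il7r belongs to the common gamma chain list, where 8 of 16 kept members were higher and 8 lower, with a median of -0.02. Il4ra of that list lay lower in every transfer than in every control library. Its log2 fold change was -1.03 ± 0.43 (SE), or -0.60 without control replicate 3.

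B cell genes were higher as well, in 14 of 15 kept markers, with a median of 1.09, 7 at an unadjusted p under 0.05 and 6 without overlap. Higher genes made up 15.1% and 15.7% of all kept genes by these measures. Ms4a1, which encodes the B cell surface protein CD20, measured 1173, 765 and 294 CPM in control and 2747, 1606 and 3214 CPM in transfer, a log2 fold change of 1.76 ± 0.46 (SE). Cr2, the complement receptor of B cells and follicular dendritic cells, measured 178, 102 and 40.4 CPM in control and 354, 240.3 and 354 CPM in transfer. Pax5, the transcription factor that holds B cell identity, was low, at 76, 30.2 and 28.8 CPM in control and 140.5, 92.1 and 159.7 CPM in transfer. None of these 3 genes overlapped between groups. Gpr183, the oxysterol receptor that guides B cells and innate lymphoid cells into gut lymphoid tissue, measured 172, 151 and 44.2 CPM in control and 439.7, 311 and 409 CPM in transfer (log2 fold change 1.66 ± 0.46, SE). The median of the B cell list was 0.75 without control replicate 3 and 1.49 without control replicate 1. Summed B cell marker levels were 6363, 4458 and 2244 CPM in control and 10310, 6527 and 11708 CPM in transfer, so transfer replicate 2 exceeded control replicate 1 by little.

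Trafficking and co-receptor genes of lymphocytes lay on the same side. Of 14 kept chemokine receptor genes 14 were higher, with a median of 1.03, 7 at an unadjusted p under 0.05 and 5 without overlap. The matching shares of all kept genes were 15.1% and 15.7%. Without control replicate 3 the median was 0.86, with 12 members higher, 2 lower and 4 at an unadjusted edgeR p under 0.05. Ccr7, which guides cells to lymph nodes, measured 104, 102 and 25 CPM in control and 242, 123 and 263 CPM in transfer. Cxcr6, a receptor of tissue-resident T cells, measured 1781, 1332 and 421 CPM in control and 2833, 1826 and 2993 CPM in transfer. Itga4 encodes the alpha-4 integrin chain, which pairs with beta-7 for homing to the gut. It measured 58.6, 122 and 67.3 CPM in control and 258, 159 and 346 CPM in transfer, and its log2 fold change of 1.61 ± 0.44 (SE) was 1.60 without control replicate 3. None of these 3 genes overlapped. Among 19 kept checkpoint, co-stimulation and regulatory T cell genes 19 were higher, with a median of 0.90 and 9 without overlap. That last share was 15.7% over all kept genes. The median of this list was 0.71 without control replicate 3, with 19 members still higher. Ctla4, an inhibitory receptor of regulatory and activated T cells, measured 376, 249.99 and 80.8 CPM in control and 684, 418 and 545 CPM in transfer. Cd86, a ligand of CD28 and CTLA-4 on antigen-presenting cells, measured 172, 149 and 106 CPM in control and 255, 316 and 334 CPM in transfer (log2 fold change 1.09 ± 0.36, SE).

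Chemokine ligands were split. Of 20 kept genes 10 were higher and 10 lower, with a median of 0.02. Ccl4 and Xcl1, which T cells and natural killer cells release, were on the higher side. Ccl4 measured 762, 1035 and 361 CPM in control and 2419.6, 1197 and 2449.6 CPM in transfer, and Xcl1 7777, 5451 and 1581 CPM in control and 13760.3, 8256 and 13702 CPM in transfer. Ccl9, a ligand gene found in mouse epithelium and myeloid cells, was on the lower side, at 1538, 2324 and 1469 CPM in control and 942, 1061 and 991 CPM in transfer. All 3 were free of overlap, with log2 fold changes of 1.49 ± 0.42 (SE), 1.27 ± 0.46 (SE) and -0.83 ± 0.34 (SE).

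**Figure D3:**
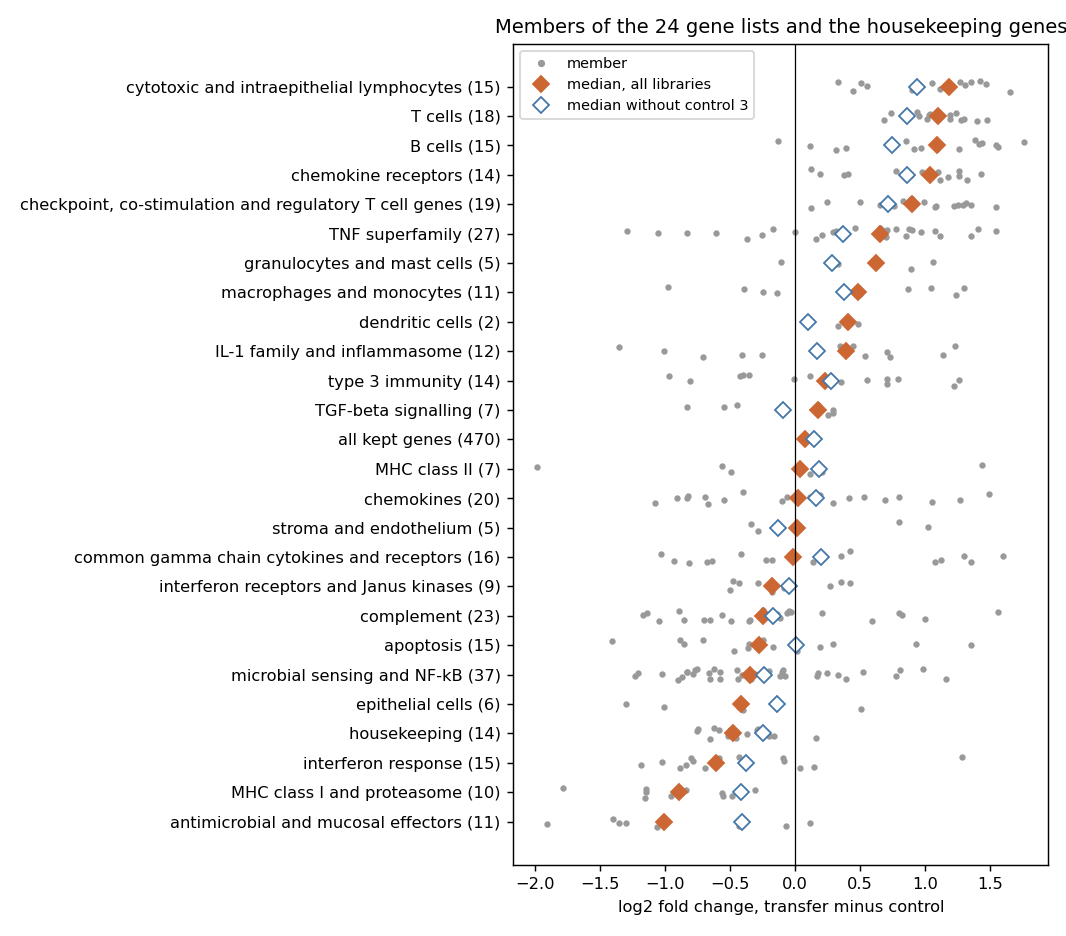
Log2 fold change of transfer minus control for the kept members of 24 gene lists, the housekeeping genes and, as a median alone, all kept genes; grey points are members, filled diamonds medians over all libraries and open diamonds medians without control replicate 3, with the number of kept members in brackets. The cytotoxic, T cell, B cell and chemokine receptor medians lie near 1 and the antimicrobial and MHC class I medians near -1, and the last 2 lie at -0.41 and -0.42 without control replicate 3.

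Antimicrobial and mucosal effector genes were lower in transfer. Of 11 kept members (16 on the panel) 10 were lower, with a median of -1.01, 4 at an unadjusted p under 0.05 and 3 without overlap. Lower genes made up 7.23% and 10.6% of all kept genes by these measures. Itln1 encodes intelectin 1, a lectin of goblet and Paneth cells that binds microbial sugars. It measured 24137, 30851 and 15148 CPM in control and 8388, 11772 and 8262 CPM in transfer. Every transfer library lay below every control library, including control replicate 3, and the log2 fold change was -1.30 ± 0.36 (SE). Without control replicate 3 it was -1.44, with an edgeR adjusted p of 0.0394, and this was the only edgeR call in that setting. Pla2g2a, a secreted phospholipase of Paneth cells that attacks bacterial membranes, measured 643, 1121 and 346 CPM in control and 330.4, 220.2 and 251 CPM in transfer. The highest transfer library and control replicate 3 lay close together, and the log2 fold change was -1.40 ± 0.44 (SE) with all libraries and -1.61 without control replicate 3. It was -0.86 without control replicate 2, a move of over 1.5 times. Nos2, the inducible nitric oxide synthase, measured 199.8, 438 and 535 CPM in control and 109, 159 and 43.3 CPM in transfer, a log2 fold change of -1.91 ± 0.54 (SE). Il33, an alarmin gene of barrier cells, measured 311, 599 and 677 CPM in control and 78.1, 438 and 100.01 CPM in transfer, and transfer replicate 2 lay within the control range. Its log2 fold change of -1.35 ± 0.62 (SE) was -2.60 without that library. The list's median depended on single libraries, at -0.41 without control replicate 3 and -1.5 without transfer replicate 2. It also depended on the scaling, at -0.62 with housekeeping scaling, -0.63 with spike-in scaling and -0.60 with the deposited signal.

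Epithelial markers were lower in 5 of 6 cases, with a median of -0.42, which became -0.73 and -0.14 on leaving out control replicate 1 or 3, and -0.95 on leaving out transfer replicate 2. This list shares members, Itln1 among them, with the antimicrobial list, so the lists are not separate results. Their summed levels nearly coincided, at 85324 and 84488 CPM in control replicate 1 and 104832 and 101978 CPM in transfer replicate 2. Pigr measured 47904, 52679 and 70079 CPM in control and 29168, 64256 and 35400.2 CPM in transfer. Ccl25 measured 10270.5, 18628 and 26426 CPM in control and 9413, 23456 and 9025 CPM in transfer. The groups overlapped in both genes, because transfer replicate 2 lay within the control range. In that library Itln1, Pla2g2a, Nos2 and Mif lay below every control library, and Pigr and Ccl25 did not. The former genes were picked by their small p, and no gene so picked overlapped between groups, so this contrast is no test. As shares of Pigr counts, Itln1, Pla2g2a and Mif overlapped between the groups. Abcb1a, the efflux pump P-glycoprotein of the absorptive cell's luminal face, was the epithelial marker that was higher in transfer. It measured 2144, 2419 and 2257 CPM in control and 2719, 3856 and 3108 CPM in transfer, without overlap, and its log2 fold change was 0.51 ± 0.30 (SE). The T cell marker sums given above were higher in every transfer library than in any control library, though by little in transfer replicate 2. The part of the T cell signal in the lower epithelial genes was not tested. Mif, the gene of a cytokine with tautomerase activity that epithelial and immune cells make constitutively, measured 15565, 17884 and 15887 CPM in control and 9161, 9496 and 9162 CPM in transfer. Its levels hardly varied within a group, and the log2 fold change of -0.83 ± 0.27 (SE) stayed between -0.91 and -0.74 when any 1 library was left out. Housekeeping genes were lower in 13 of 14 cases too, with a median of -0.48 (-0.25 without control replicate 3), and scaling to their geometric mean moved the median log2 fold change of all genes from 0.08 to 0.46. With housekeeping scaling Itln1 lay at -0.94, Mif at -0.43 and Pigr at -0.05 (log2).

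**Figure D4:**
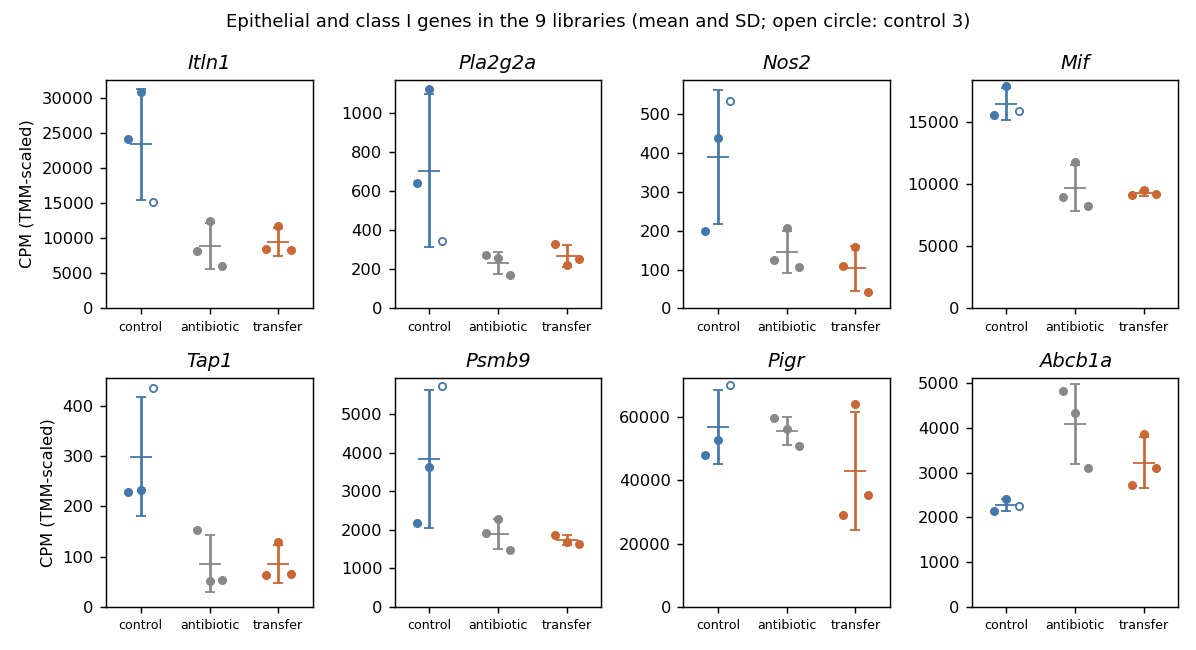
Level (CPM, TMM-scaled, linear axes from 0) of 8 genes in the 3 control, 3 antibiotic and 3 transfer libraries; points are libraries, with control replicate 3 open, and bars show the mean and SD (n = 3). Itln1, Pla2g2a, Nos2, Mif, Tap1 and Psmb9 show no overlap between control and transfer, Pigr overlaps, and Abcb1a is higher in every transfer than in every control library.

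Genes of MHC class I presentation were lower in all 10 kept members (12 on the panel), with a median of -0.90, 5 at an unadjusted p under 0.05 and 6 without overlap. Among all kept genes the shares of lower genes were 7.23% and 10.6%. The list depended on control replicate 3, without which its median was -0.42, while leaving out any other control or transfer library gave -0.83 to -1.20. The median was -0.45 with housekeeping scaling, -0.48 with spike-in scaling and -0.40 with the deposited signal. Tap1, a chain of the transporter that loads peptides into the endoplasmic reticulum, measured 228, 233 and 435 CPM in control and 62.4, 129 and 65.7 CPM in transfer. The highest transfer library, replicate 2, lay below the lowest control library, and the log2 fold change was -1.79 ± 0.53 (SE), or -1.32 without control replicate 3. Psmb9, a catalytic subunit of the immunoproteasome, measured 2167, 3616 and 5719 CPM in control and 1873, 1683 and 1627 CPM in transfer. Its log2 fold change of -1.15 ± 0.37 (SE) shrank to -0.63 without control replicate 3. Psmb10, another immunoproteasome subunit, measured 2272, 3736 and 5615 CPM in control and 1868, 2144 and 1989.8 CPM in transfer, with -0.95 ± 0.35 (SE) against -0.48 without that library. B2m, the light chain of class I and the most abundant gene of the panel, stood at -0.31 ± 0.29 (SE) on the log2 scale with that library and at 0.05 without it. Mr1, a class I-like molecule that presents microbial riboflavin metabolites to mucosal-associated invariant T cells, was not in the list and lay on the other side. It measured 82.5, 68.8 and 67.3 CPM in control and 203, 127 and 236 CPM in transfer, without overlap, and its log2 fold change was 1.37 ± 0.42 (SE), or 1.42 without control replicate 3.

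The promoters of Tap1 and Irgm1 are shown because these genes lay among the members of the class I and interferon lists with the smallest p. Both sequences come from RefSeq (GRCm38.p6) and run from 250 bases before to 50 bases after the gene's start. The Tap1 window is chr17:34187306-34187605 on the plus strand and the Irgm1 window chr11:48871371-48871670 on the minus strand, each written 5′ to 3′ in the gene's direction. Tap1 and Psmb9 lie head to head, and the Psmb9 window shares 275 bases with that of Tap1 on the opposite strand, so it is not printed. The windows were searched on both strands for GAAANNGAA, the core of the interferon-stimulated response element, and for TTCNNNGAA, the gamma-activated site, with any overlap of matches allowed. Matches are in capitals.
Tap1: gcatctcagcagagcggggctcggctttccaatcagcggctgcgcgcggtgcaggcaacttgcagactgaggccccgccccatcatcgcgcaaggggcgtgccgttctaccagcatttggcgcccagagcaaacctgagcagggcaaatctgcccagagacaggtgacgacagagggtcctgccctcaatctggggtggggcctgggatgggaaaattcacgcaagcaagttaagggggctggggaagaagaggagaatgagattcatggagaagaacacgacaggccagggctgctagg
Irgm1: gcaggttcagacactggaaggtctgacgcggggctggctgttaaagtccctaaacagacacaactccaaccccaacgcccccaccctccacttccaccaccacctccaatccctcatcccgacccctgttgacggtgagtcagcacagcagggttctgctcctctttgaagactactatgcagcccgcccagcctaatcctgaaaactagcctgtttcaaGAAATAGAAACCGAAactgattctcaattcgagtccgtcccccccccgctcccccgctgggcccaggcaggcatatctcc
The Irgm1 window held 2 matches to GAAANNGAA, which overlap each other and start 30 and 24 bases before the gene's start. The Tap1 and Psmb9 windows held neither motif in these letters. GAAANNGAA was found in 8.56% of 32851 promoters in the table and TTCNNNGAA in 8.3%. Among the kept interferon response genes with a promoter in the table, 5 of 13 held each motif in any of their listed promoters. Among the class I and proteasome genes 2 of 8 held GAAANNGAA and 0 of 8 held TTCNNNGAA, counted in the same way. The shares over all promoters count each promoter singly, so they are not matched to these counts by gene. A gene with several listed promoters has more chances of a match. These matches describe the letters only.

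MHC class II genes did not move together, with 4 of 7 kept members higher, 3 lower and a median of 0.04. Ciita, the co-activator that switches class II genes on, measured 189, 304 and 517 CPM in control and 96.3, 88.1 and 71.7 CPM in transfer, without overlap, a log2 fold change of -1.98 ± 0.66 (SE). H2-DMb2, which helps exchange peptides on class II in B cells and other presenting cells, lay on the other side, at 1318, 799 and 208 CPM in control and 2461, 1175 and 2676 CPM in transfer, with transfer replicate 2 below control replicate 1. The invariant chain gene Cd74 had a log2 fold change of 0.04 ± 0.29 (SE).

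Interferon response genes were lower in 12 of 15 kept members, with a median of -0.61. At an unadjusted p under 0.05 stood 3 lower members and 1 higher, and 3 lower members did not overlap between groups. Of all kept genes, 7.23% were lower and 15.1% higher at that p, and 10.6% were lower without overlap. Without control replicate 3 the median was -0.38, and it was -0.24 with housekeeping scaling and -0.22 with the deposited signal. Irgm1, an interferon-inducible GTPase of intracellular defence, measured 1753, 2569 and 4011 CPM in control and 1223, 1365 and 1079 CPM in transfer, and its log2 fold change of -1.18 ± 0.41 (SE) was -0.72 without control replicate 3. Irf8, a transcription factor of myeloid and B cells that interferon-gamma induces, measured 439, 507 and 613 CPM in control and 245, 415 and 184 CPM in transfer, also without overlap. Irf1, a transcription factor upstream of class I presentation genes, overlapped, at 4257, 6584 and 8724 CPM in control and 3432, 4357 and 3557 CPM in transfer. Its log2 fold change of -0.79 ± 0.32 (SE) was -0.41 without control replicate 3. Ifitm1, an interferon-induced membrane protein gene that lymphocytes also express, was on the higher side, at 219, 290.3 and 51.9 CPM in control and 509.9, 251 and 609 CPM in transfer. The interferon-gamma gene itself, outside the naming rule and given because the response list bears its name, measured 187, 124 and 44.2 CPM in control and 406, 184 and 364 CPM in transfer, with transfer replicate 2 just under control replicate 1.

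Microbial sensing and NF-kB genes were lower in 27 of 37 kept members, with a median of -0.35 (-0.54 and -0.22 without transfer replicates 2 and 3), 4 lower and 0 higher at an unadjusted p under 0.05, and 4 lower against 1 higher without overlap. Over all genes 7.23% were lower at that p and 10.6% lower without overlap, so the 4 of 37 members without overlap lay near the background. With housekeeping scaling the median was 0.01, so the direction of this list rests on the scaling. Cd14, the co-receptor that hands lipopolysaccharide to TLR4, measured 1553, 1723 and 2346 CPM in control and 674, 1005 and 711 CPM in transfer, without overlap. Its log2 fold change was -1.23 ± 0.33 (SE), or -0.94 without control replicate 3, and with housekeeping scaling it was -0.84. Tirap, an adaptor of TLR2 and TLR4, measured 180.3, 235 and 465 CPM in control and 109, 168 and 103 CPM in transfer, and its log2 fold change of -1.21 ± 0.54 (SE) was -0.61 without control replicate 3. Nfkbiz, an inducible regulator of NF-kB targets in epithelium, measured 2665, 3663 and 5109 CPM in control and 1789.96, 2806 and 1675 CPM in transfer, with transfer replicate 2 above control replicate 1. Tlr4 itself was low and overlapping, at 36.9, 60.4 and 48.1 CPM in control and 46.8, 41.4 and 47.8 CPM in transfer.

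Ptgs2 and H60a, which belong to none of the lists, were among the higher genes. Ptgs2, the inducible cyclooxygenase, was near the limit of detection in control, at 30.4, 30.2 and 7.69 CPM with 2 of 3 libraries above background, and measured 62.4, 100.1 and 83.6 CPM in transfer, a log2 fold change of 1.85 ± 0.57 (SE). H60a, a stress-induced ligand gene for the NKG2D receptor, measured 465, 493 and 129 CPM in control and 1363, 961 and 1175 CPM in transfer (log2 fold change 1.69 ± 0.46, SE). In the TNF superfamily 20 of 27 kept members were higher, with a median of 0.65, which was 0.37 without control replicate 3 and 0.35 without transfer replicate 1. Cd40lg, the T cell ligand that helps B cells, measured 50, 55.4 and 17.3 CPM in control and 172, 125 and 64.2 CPM in transfer. Tnfsf13b, the B cell survival factor BAFF, was on the lower side, at 267, 453 and 667 CPM in control and 143, 283 and 137 CPM in transfer, with overlap. Its log2 fold change of -1.29 ± 0.45 (SE) was -0.83 without control replicate 3. In the type 3 immunity list 8 of 14 kept members were higher, with a median of 0.23. That median was 0.09 without transfer replicate 2, 0.44 without control replicate 2 and 0.61 with housekeeping scaling. Il22, the cytokine that drives epithelial antimicrobial genes, measured 41.3, 31.9 and 19.2 CPM in control and 46.8, 45.4 and 122 CPM in transfer. The value rested on transfer replicate 3, since the log2 fold change of 1.22 ± 0.62 (SE) was 0.62 without that library. Complement genes were lower in 17 of 23 kept members, with a median of -0.25 that was -0.64 without control replicate 1 and -0.66 without transfer replicate 2, and that leaving out transfer replicate 3 turned to 0.10 and housekeeping scaling to 0.14. Macrophage and monocyte genes had a median of 0.48, with 7 of 11 kept members higher. It was 0.86 and 0.25 on leaving out control replicate 1 or 2, and 0.78 and 0.08 on leaving out transfer replicate 1 or 2. Among them Tyrobp, a signalling adaptor that natural killer cells also use, measured 2348, 2424 and 815 CPM in control and 4597, 2397 and 4559 CPM in transfer, while the integrin gene Itgam was lower in every transfer library, at 308, 426 and 435 CPM in control and 200.3, 220.2 and 173 CPM in transfer. Granulocyte and mast cell genes had a median of 0.62 over 5 kept members, IL-1 family genes 0.40 over 12, and 2 dendritic cell genes 0.41. Without control replicate 3 these medians were 0.28, 0.17 and 0.10. The granulocyte median was also 1.02 without control replicate 2 and 0.38 without transfer replicate 3, the IL-1 median 0.22 and 0.17 without transfer replicates 2 and 3, and the dendritic median 0.71 without control replicate 1. Medians were 0.01 for stroma, -0.02 for common gamma chain cytokines, 0.18 for TGF-beta signalling and -0.28 for apoptosis, and each of these 4 turned its sign when some library was left out. Housekeeping scaling turned the apoptosis median to 0.15. Interferon receptors and Janus kinases had a median of -0.18, which was -0.04 without control replicate 3 and which housekeeping scaling turned to 0.19. It also ran from -0.45 without transfer replicate 2 to -0.02 without transfer replicate 3. Il1r2, a decoy receptor for IL-1, and Fyn, a Src-family kinase, were above the background limit in 3 transfer and 0 control libraries, so no fold is given for them.

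**Figure D5:**
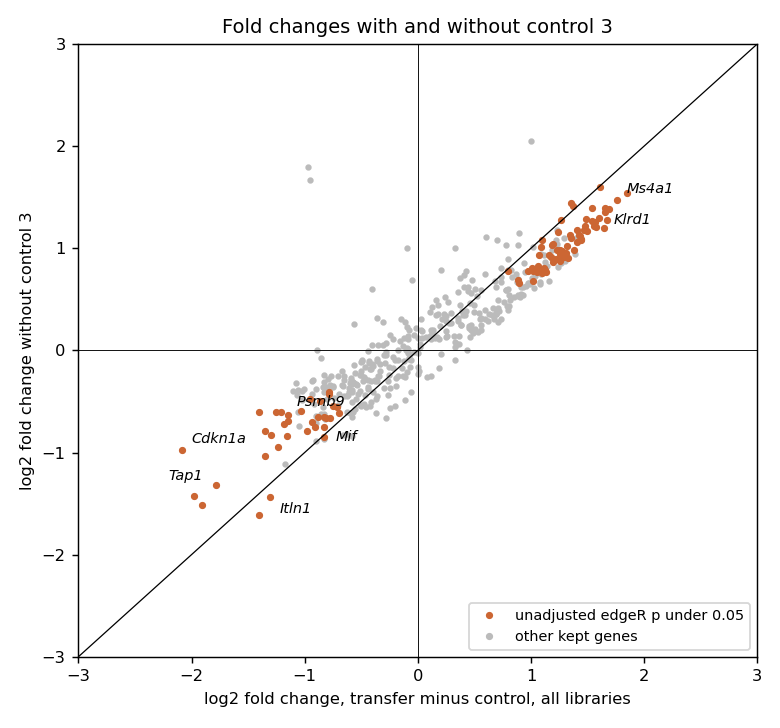
Log2 fold change of transfer minus control with all libraries (horizontal axis) against the value without control replicate 3 (vertical axis) for 459 genes, with the 104 at an unadjusted edgeR p under 0.05 in orange and the line of equal values. Of these 104 genes, 98 lie closer to 0 without that library, Psmb9 and Cdkn1a lie far from the line, and Itln1 lies on its other side.

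Of the 105 genes at an unadjusted p under 0.05, 104 could be fitted without control replicate 3. All 104 kept their direction there, 69 stayed under 0.05, and 15 were over 1.5 times smaller. They were picked by their p in a fit that shares the other libraries, so this describes them and is no further test. Among the 459 genes fitted both ways, 39 changed direction. Over all genes, 92 had a log2 fold change above 1 and 30 below -1 with every library, against 49 and 7 without control replicate 3.

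The antibiotic libraries share their controls with this comparison, so the values are given side by side and not as a second piece of evidence. Against control, the antibiotic libraries had log2 fold changes of 1.64 for Klrd1, 1.99 for Ms4a1, -1.40 for Itln1, -0.77 for Mif and -1.78 for Tap1, where transfer had 1.65, 1.76, -1.30, -0.83 and -1.79. Itln1 measured 8165, 12428 and 6060.3 CPM and Mif 8973, 11803 and 8246 CPM in the antibiotic libraries, so transfer and antibiotic overlapped for both genes. The test of transfer against antibiotic, which is also the test of the difference between these effects, called 0 of 470 genes by edgeR, DESeq2 and limma-voom, with 12 genes at an unadjusted edgeR p under 0.05 and a smallest edgeR adjusted p of 0.993. With spike-in scaling, which put the median log2 fold change of all genes in this contrast at 2.03, 212 genes stood at an unadjusted p under 0.05, still with 0 at an adjusted p under 0.05 and a smallest adjusted p of 0.0988. Spike-in totals ran from 19879 to 35248 counts in the antibiotic and from 2994 to 13211 counts in the transfer libraries. Spike-in scaling divides the counts by these totals. The T cell list had a median of 0.71 in antibiotic and 1.10 in transfer against control, and the epithelial list 0.12 and -0.42. The low spread between antibiotic and transfer values does not show that the groups were alike, given the width of the intervals. Stat2 and Ccl20 were picked after their values were seen, and neither was called in the test of transfer against antibiotic. Stat2, a transducer of type I interferon signals, stood at -0.84 in transfer and -1.88 in antibiotic libraries against control. Ccl20, an epithelial chemokine gene, had 0.11 in transfer and 1.53 in antibiotic libraries.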

How the data were processed

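Per the labels' protocols, TRIzol extraction was followed by an RNeasy column, and the RNA was counted on the nCounter platform. Each deposited library file gave raw counts for 547 endogenous genes, 14 housekeeping genes, 8 negative controls and 6 spike-ins, classed per the file headers. Counting software is not given in the sources used here. A further deposited table held the authors' normalised signal, which equalled the counts times 1 factor per library, 7047 divided by the mean housekeeping count. This was found from the values.

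Genes were kept where the count exceeded the background limit in at least 3 of 9 libraries (456 endogenous and 14 housekeeping genes, while 91 endogenous genes were left out). edgeR 4.0.16 in R 4.3.3 fitted all 9 libraries with TMM factors (0.837 to 1.1) and no covariate, since every library is marked batch 1. The quasi-likelihood test was adjusted by Benjamini-Hochberg over 470 genes. The procedure was tested on simulated data. An exact permutation of 3 against 3 libraries cannot give a p under 0.1, so none was used. No 2 libraries of a group agreed within sampling noise, since even the closest pair differed, with a chi-square over its degrees of freedom of 6.75. Intervals and limits cover these libraries only.

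Named genes were the 20 endogenous genes with the smallest p, up to 4 kept members with the smallest p of each of 24 gene lists, and genes above the background limit in all libraries of one group and none of the other, 95 genes in all. Genes named outside this rule (Cdkn1a, Gzma, Gzmb, B2m, Cd74, Ccl25, Ifng, Tlr4, Stat2, Ccl20) were chosen after their values were seen. The members and lists were chosen with earlier results of these data known. Alternatives were DESeq2 1.42.0, limma-voom (limma 3.58.1), other scalings, filters and library sets, the replicate block and the deposited signal on log2(value + 1). All but 2 panel genes matched RefSeq by accession or symbol, and 407 endogenous genes had a promoter in the table.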

Additional observations from a re-analysis of the deposited data

How the results depend on the processing

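The count of 0 genes for transfer against control by edgeR became 40 with DESeq2, 13 with DESeq2 leaving out control replicate 3 (a setting chosen after seeing the data) and 0 to 1 with 1 library left out, where Cdkn1a was called without control replicate 1 and Itln1 without control replicate 3. It stayed at 0 with limma-voom, a robust fit, upper-quartile, total-count, housekeeping and spike-in scaling, the other filters, background subtraction, the 6 libraries alone, the deposited signal, the replicate block and an adjusted p under 0.1. Transfer against antibiotic gave 0 called genes in every setting run at an adjusted p under 0.05, and with spike-in scaling 147 at an adjusted p under 0.1. Genes at an unadjusted p under 0.05 numbered 71 higher and 34 lower by edgeR, 68 and 73 with upper-quartile scaling, 56 and 39 with total-count scaling, 103 and 6 with housekeeping scaling, 110 and 3 with the deposited signal, 0 and 0 with spike-in scaling, and 93 and 49 by DESeq2. They numbered 105 with all libraries, 168, 68 and 75 without control replicates 1, 2 and 3, and 44, 159 and 43 without transfer replicates 1, 2 and 3. The median log2 fold change of all genes, 0.08, was -0.03 with upper-quartile, 0.46 with housekeeping, 0.46 with the deposited signal and 0.14 with spike-in scaling. The T cell, cytotoxic, B cell and MHC class I lists had medians of 0.98, 1.00, 0.94 and -0.48 with spike-in scaling, and with housekeeping scaling the epithelial median was -0.03. Most named genes were picked by their small p and the alternatives reuse the same counts, so their directions are no further test. Of 2080 values of 95 named genes under alternatives, 2073 kept their direction. The 7 others were those of Pdgfrb (0.0596 with housekeeping scaling and 0.0573 with the deposited signal), Vtn (0.0848 and 0.20 in the same settings, and -1.20 to 0.27 with 1 library left out) and Jak1 (-0.0923 to 0.87 with 1 library left out, since control replicate 1 had 243 CPM and every other control or transfer library at least 1143). Their cause was not tested. With the replicate block edgeR called 0 genes, with 76 higher and 36 lower at an unadjusted p under 0.05. Same-numbered control and transfer libraries correlated at 0.34, -0.43 and -0.49 in their deviations from the group means. These values show no pairing by number but cannot exclude it with so few libraries. The differently numbered control replicate 3 and transfer replicate 2 correlated at 0.62. The number of libraries and the spread between them limit what is detectable, and genes near the background limit, such as Defb1 and Fyn, carry no usable fold.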

Other observations

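Ratios of counts within a library do not depend on the scaling between libraries. The pairs that follow were chosen after the values were seen and have no test. Abcb1a counts were 4.48%, 4.59% and 3.22% of Pigr counts in the control libraries, 9.32%, 6% and 8.78% in the transfer libraries and 8.09%, 7.73% and 6.1% in the antibiotic libraries, so every treated library lay above every control library. Klrd1 counts were 40.6%, 47.8% and 55.4% of Cd3d counts in control and 62.1%, 56.3% and 58% in transfer, without overlap by a small margin. In the antibiotic libraries they were 67%, 61.9% and 52.6%, and the last lay below control replicate 3. Itln1 counts were 50.4%, 58.6% and 21.6% of Pigr counts in control and 28.8%, 18.3% and 23.3% in transfer, where control replicate 3 lay among the transfer libraries. Mif counts were 32.5%, 33.95% and 22.7% of Pigr counts in control and 31.4%, 14.8% and 25.9% in transfer, and Pla2g2a counts 1.34%, 2.13% and 0.494% in control and 1.13%, 0.343% and 0.708% in transfer, so both ratios overlapped between the groups. Tap1 and Psmb9, which share a promoter region, had no constant ratio, with Tap1 at 10.5%, 6.45% and 7.6% of Psmb9 counts in control and 3.33%, 7.69% and 4.04% in transfer.

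Spike-in totals were 3437, 7121 and 24369 counts in the control libraries and 2994, 13211 and 9344 counts in the transfer libraries. In the antibiotic libraries they were 29934, 35248 and 19879 counts.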
